A study of Mus musculus with 9 samples.

Results

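Mouse chromosomes 4, 5, 12 and 14 were examined as 4 groups of neighbouring genes in colon organoids treated with inflammatory reagents. Members were all genes on these chromosomes that could be named through the RefSeq accession that the array's annotation gives for a probe. This gave 3786 of the 20660 named genes: 1240 on chromosome 4, 1179 on chromosome 5, 639 on chromosome 12 and 728 on chromosome 14. The other 15 autosomes held 16037 named genes and served as the comparison. The chromosomes were selected on their measured values: the median log2 changes of their genes at 12 and 60 weeks against 0 weeks lay above those of most other autosomes. The size of those changes is therefore a description and carries no test.

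Organoids are small epithelial structures grown in culture, here from mouse colon. Total RNA was hybridised to 9 single-colour (Cy3) Agilent arrays, 3 each from cultures treated for 0, 12 or 60 weeks. The labels do not name the reagents, and they give no strain, genotype or age of the mice. No untreated culture of 12 or 60 weeks was analysed here, so treatment and time in culture cannot be told apart. The labels do not say whether the 3 samples of a group came from separate cultures or animals. The p-values then measure only the spread between these samples, which may be technical. In bulk RNA, fewer cells of a type and less RNA per cell cannot be told apart.

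A mammalian chromosome carries a mixture of unrelated genes, and most neighbours on it share neither function nor regulation. Tandem gene families are the exception: the CXC chemokines and the EGF-family ligands lie side by side on mouse chromosome 5, and the Cdkn2a and Cdkn2b genes lie beside the type I interferon genes on chromosome 4. The amount of an mRNA reflects the activity of its promoter, the stability of the transcript and the number of gene copies in the cells. Only RNA was measured in these samples.

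The members differ in the promoters that drive them, and the first 4 sequences show the most common kind. Pink1, Tec, Klhdc1 and Sucla2 are the genes of chromosomes 4, 5, 12 and 14 that lay nearest to their chromosome's median change at 12 weeks, among those with exactly 1 promoter in the RefSeq table. The 250 bases before the start of transcription are given 5′ to 3′ on the gene's own strand (GRCm38.p6), with every CpG in capitals. They lie at chr4:138326297-138326546 on the minus strand, chr5:72868449-72868698 on the minus strand, chr12:69241582-69241831 on the plus strand and chr14:73552536-73552785 on the plus strand.
Pink1: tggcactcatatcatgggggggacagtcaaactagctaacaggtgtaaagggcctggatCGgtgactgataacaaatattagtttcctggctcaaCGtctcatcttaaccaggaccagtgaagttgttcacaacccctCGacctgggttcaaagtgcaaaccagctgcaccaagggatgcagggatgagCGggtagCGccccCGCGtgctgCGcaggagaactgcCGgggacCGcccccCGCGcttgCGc
Tec: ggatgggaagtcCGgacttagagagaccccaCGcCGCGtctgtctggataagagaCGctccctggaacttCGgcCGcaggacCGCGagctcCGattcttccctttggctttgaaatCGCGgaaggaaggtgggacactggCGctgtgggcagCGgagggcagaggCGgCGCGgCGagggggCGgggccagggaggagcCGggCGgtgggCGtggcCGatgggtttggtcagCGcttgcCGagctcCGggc
Klhdc1: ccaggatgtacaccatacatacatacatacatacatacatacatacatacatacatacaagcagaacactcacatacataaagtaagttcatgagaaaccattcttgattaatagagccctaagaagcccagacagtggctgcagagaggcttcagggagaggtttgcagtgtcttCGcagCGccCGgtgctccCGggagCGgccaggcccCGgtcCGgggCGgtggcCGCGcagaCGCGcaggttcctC
Sucla2: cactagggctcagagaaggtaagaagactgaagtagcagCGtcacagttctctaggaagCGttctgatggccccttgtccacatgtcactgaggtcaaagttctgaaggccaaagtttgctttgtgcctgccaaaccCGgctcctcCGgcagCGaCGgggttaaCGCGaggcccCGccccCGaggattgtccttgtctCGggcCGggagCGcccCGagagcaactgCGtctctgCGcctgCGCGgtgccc

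Over windows of 300 bases, from 250 before to 50 after the start, the Pink1 promoter held 18 CpG, that of Klhdc1 21, that of Sucla2 24 and that of Tec 33. All 4 fall in the CpG-rich class, set here as a CpG ratio (observed over expected) of at least 0.6 with at least 50% G and C. Such promoters are typical of genes used by most cell types.

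Promoters of a different kind belong to 3 chemokine genes of chromosome 5, whose RNA changed far more than the chromosome's median. They are shown because they share a stretch that matches the NF-kB consensus, given here in capitals. NF-kB is a transcription factor family that responds to inflammatory signals. All 3 lie on the plus strand (GRCm38.p6), at chr5:90785851-90786100 for Cxcl3, chr5:90890995-90891244 for Cxcl1 and chr5:90903649-90903898 for Cxcl2.
Cxcl3: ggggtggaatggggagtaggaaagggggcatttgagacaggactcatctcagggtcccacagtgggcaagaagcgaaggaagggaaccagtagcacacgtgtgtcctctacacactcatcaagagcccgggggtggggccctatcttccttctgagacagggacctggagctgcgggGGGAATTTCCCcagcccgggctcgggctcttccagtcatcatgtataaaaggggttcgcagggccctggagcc
Cxcl1: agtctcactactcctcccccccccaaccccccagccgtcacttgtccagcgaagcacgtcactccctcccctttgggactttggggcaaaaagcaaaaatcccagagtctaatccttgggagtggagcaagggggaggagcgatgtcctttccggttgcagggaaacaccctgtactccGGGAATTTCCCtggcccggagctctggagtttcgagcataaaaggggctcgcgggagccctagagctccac
Cxcl2: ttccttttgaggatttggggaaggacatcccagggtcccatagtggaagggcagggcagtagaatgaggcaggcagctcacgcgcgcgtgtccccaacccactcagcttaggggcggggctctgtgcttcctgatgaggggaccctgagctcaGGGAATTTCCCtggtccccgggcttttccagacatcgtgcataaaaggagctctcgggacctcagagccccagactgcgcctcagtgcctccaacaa

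The stretch has the same 11 letters in all 3 promoters and begins 73 bases before the start in Cxcl3, 71 bases in Cxcl1 and 97 bases in Cxcl2. None of the 3 is CpG-rich by the rule above. The NF-kB consensus was searched on both strands with overlapping matches joined, and 4.51% of all promoters in the RefSeq table hold it. A match describes the letters of the window and does not show that the factor binds there.

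Levels are given as log2 of the probe signal relative to the 75th percentile of the same array, so that 0 is the level at that percentile. A gene entered the tests when the scanner software placed its probe well above background on 2 or more arrays of any group. By that rule 2740 members (72.4%) were tested (921, 876, 462 and 481 on chromosomes 4, 5, 12 and 14), and 1046 were not. Of the tested members, 2363 were above background on all 9 arrays, and 141 passed only through their level at 12 or 60 weeks. Changes were tested with limma over all 14033 tested genes of the array, with Benjamini-Hochberg adjustment and a threshold of 0.05.

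Between 49.2% and 52.7% of all probes were well above background on an array. Pairwise correlations within a group were 0.994 to 0.996 at 0 weeks and 0.990 to 0.994 at 60 weeks. At 12 weeks, arrays 1 and 3 correlated at 0.992, and array 2 correlated with them at 0.978 and 0.977. All 12 of 12 epithelial marker genes, Epcam, Vil1, Krt20 and Cdx2 among them, were above background on all arrays. Of 7 fibroblast markers, 2, 1 and 2 were above background on all arrays at 0, 12 and 60 weeks, and Dcn, Lum, Pdgfra and Thy1 were on none. Of 6 leukocyte markers on the array, Cd3e, Csf1r and Itgam were above background on all arrays, whereas Ptprc and Cd79a were on none. The summed signal of the leukocyte list, relative to the 75th percentile, ranged from 16.7 to 23.4 at 0 weeks, 24.3 to 47.9 at 12 weeks and 27.3 to 34.4 at 60 weeks. Kdr and Pecam1 of 5 endothelial markers were above background on all arrays, and Cdh5, Emcn and Tek were on none. The part of these cell types in the changes below was not tested.

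Genes of the 4 chromosomes lay higher at 12 weeks than at 0 weeks, relative to the other autosomes. The median log2 change of a gene, minus the median of the other autosomes, was 0.37 on chromosome 4, 0.28 on chromosome 5, 0.34 on chromosome 12 and 0.31 on chromosome 14. As folds these are 1.29, 1.21, 1.26 and 1.24. At 60 weeks the same chromosomes lay at 0.29, 0.19, 0.30 and 0.21, or 1.22-fold, 1.14-fold, 1.23-fold and 1.16-fold. The other autosomes' own medians were −0.11 at 12 weeks and −0.08 at 60 weeks, so each shift is relative to a slightly lower level. With no filter on dim probes the medians were smaller, at 0.21, 0.14, 0.18 and 0.10 at 12 weeks and at 0.15, 0.071, 0.15 and 0.059 at 60 weeks. The comparisons at 12 and 60 weeks share the 3 arrays at 0 weeks.

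The shift was present on every single array. On chromosome 4 the 3 arrays at 12 weeks lay at 0.39, 0.33 and 0.38 relative to the mean of the 0 weeks arrays. At 60 weeks they lay at 0.28, 0.26 and 0.31. On chromosome 12 the arrays lay at 0.36, 0.34 and 0.30 at 12 weeks, and at 0.29, 0.28 and 0.29 at 60 weeks. On chromosome 5 the values were 0.31, 0.25 and 0.25 at 12 weeks and 0.21, 0.17 and 0.21 at 60 weeks. On chromosome 14 they were 0.25, 0.27 and 0.30 at 12 weeks and 0.20, 0.21 and 0.25 at 60 weeks, with the narrowest gap between the times. Relative to all 15 other autosomes, the 3 groups did not overlap on any of these chromosomes. All arrays at 60 weeks lay above 0 weeks and below 12 weeks. That reference holds chromosomes 10 and 19, which were high at 60 weeks but not at 12 weeks and so lower the 60 weeks values. Whether the 12 and 60 weeks arrays stay apart without chromosomes 10 and 19 was not examined. Over the 4 chromosomes the single 0 weeks arrays stayed between −0.02 and 0.01.

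**Figure D1:**
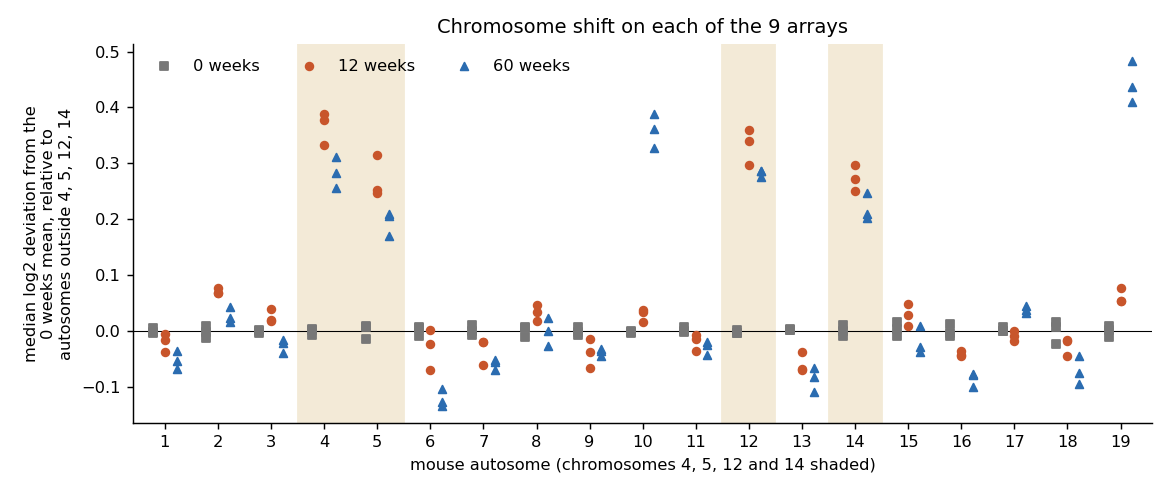
Median log2 deviation of a chromosome's genes from their 0 weeks mean on each array, relative to the autosomes other than 4, 5, 12 and 14, with 1 point per array (squares 0 weeks, circles 12 weeks, triangles 60 weeks). Chromosomes 4, 5, 12 and 14 (shaded) lie at 0.25 to 0.39 at 12 weeks and at 0.17 to 0.31 at 60 weeks. Chromosomes 10 and 19 are high at 60 weeks.

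Among the other 15 autosomes, the nearest at 12 weeks were chromosome 2 at 0.08 and chromosome 19 at 0.07. At 60 weeks chromosomes 10 and 19 lay above all 4, at 0.36 and 0.45, and chromosome 17 was next at 0.04. Without chromosomes 10 and 19, the single arrays of the other 13 autosomes ranged from −0.07 to 0.08 at 12 weeks and from −0.13 to 0.04 at 60 weeks. Chromosomes 4, 5, 12 and 14 lay above these 13 at both times without overlap of arrays.

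The arrays lay on 2 slides, with 8 arrays on the first in 2 rows and the third 60 weeks array alone on the second. The first row held the 3 arrays of 0 weeks and 1 array of 12 weeks. Within that row, the 12 weeks array minus the 0 weeks arrays gave 0.39, 0.31, 0.36 and 0.25 on chromosomes 4, 5, 12 and 14. Within the second row, 60 weeks minus 12 weeks gave −0.09, −0.06, −0.04 and −0.08. The second slide's 60 weeks array lay at 0.31, 0.21, 0.29 and 0.25, and the mean of the 60 weeks arrays on the first slide at 0.27, 0.19, 0.28 and 0.20. No row held arrays of both 0 and 60 weeks, so that comparison rests on the 12 weeks arrays once the row is a term.

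The shift was a move of the whole distribution, not of a tail alone. At 12 weeks 71.7% of the tested members changed by more than the median gene of the other autosomes, and at 60 weeks 71.3% did. The share was 73.4%, 69.2%, 73.4% and 71.3% on chromosomes 4, 5, 12 and 14 at 12 weeks. At 60 weeks it was 73.4%, 68.7%, 76.2% and 67.2%. The lower end of the distribution (the 10th percentile) lay 0.23 above that of the other autosomes at 12 weeks, and the 90th percentile lay 0.36 above. The range between the quartiles was 0.76 on the 4 chromosomes and 0.69 elsewhere.

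By limma, at 12 weeks 917 members rose and 346 fell, 1263 in all, where 41.8% of all tested genes were called, 19.1% as higher and 22.7% as lower. By chromosome, 343 rose and 106 fell on chromosome 4, 264 and 121 on chromosome 5, 164 and 47 on chromosome 12, and 146 and 72 on chromosome 14. At 60 weeks 749 members rose and 261 fell, 1010 in all, where 32.8% of all tested genes were called, 16.7% as higher and 16.1% as lower. The counts by chromosome were 277 and 76, 220 and 87, 126 and 39, and 126 and 59. These calls come from the contrasts that picked the chromosomes, and nothing is read from them. Leaving out the third 60 weeks array, alone on its slide, gave 815 members in place of 1010 at 60 weeks against 0 weeks. The fit with the slide's row as a block also lacks that array. In it 307 members were called, and 9.92% of all tested genes in place of 32.8%. Among the genes named below, the calls of Tec, Mtap, Areg, Ereg, Hspb1, Oas3 and Runx3 at 60 weeks then ended, as did those of Prkar2b, Pxdn, Oas3 and Runx3 at 12 weeks against 0 weeks.

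Members also entered the measurable range more often than they left it. At 12 weeks 121 tested members (4.42%) that were not above background at 0 weeks were above it on at least 2 arrays, compared with 3.00% of tested genes elsewhere. At 60 weeks 66 did (2.41%, elsewhere 1.82%). Loss of signal was seen in 24 members at 12 weeks (0.876%, elsewhere 1.43%) and in 43 at 60 weeks (1.57%, elsewhere 2.04%). A gene had to be above background in some group to be tested, so these shares are descriptions.

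The shift ran along the whole length of the chromosomes. Each chromosome was divided into 10 stretches with equal numbers of tested genes, and all 40 of the 40 stretches lay above 0 at both times. Their medians ranged from 0.13 to 0.51 at 12 weeks and from 0.08 to 0.39 at 60 weeks. Of the 130 stretches of the 13 other chromosomes, 63 lay above 0 at 12 weeks and 40 at 60 weeks. Chromosomes 10 and 19 had 10 of 10 stretches above 0 at 60 weeks too, and 6 and 9 of 10 at 12 weeks. The stretches of chromosome 12 were the most alike, at 0.27 to 0.43 at 12 weeks, and those of chromosome 4 ranged from 0.15 to 0.51.

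**Figure D2:**
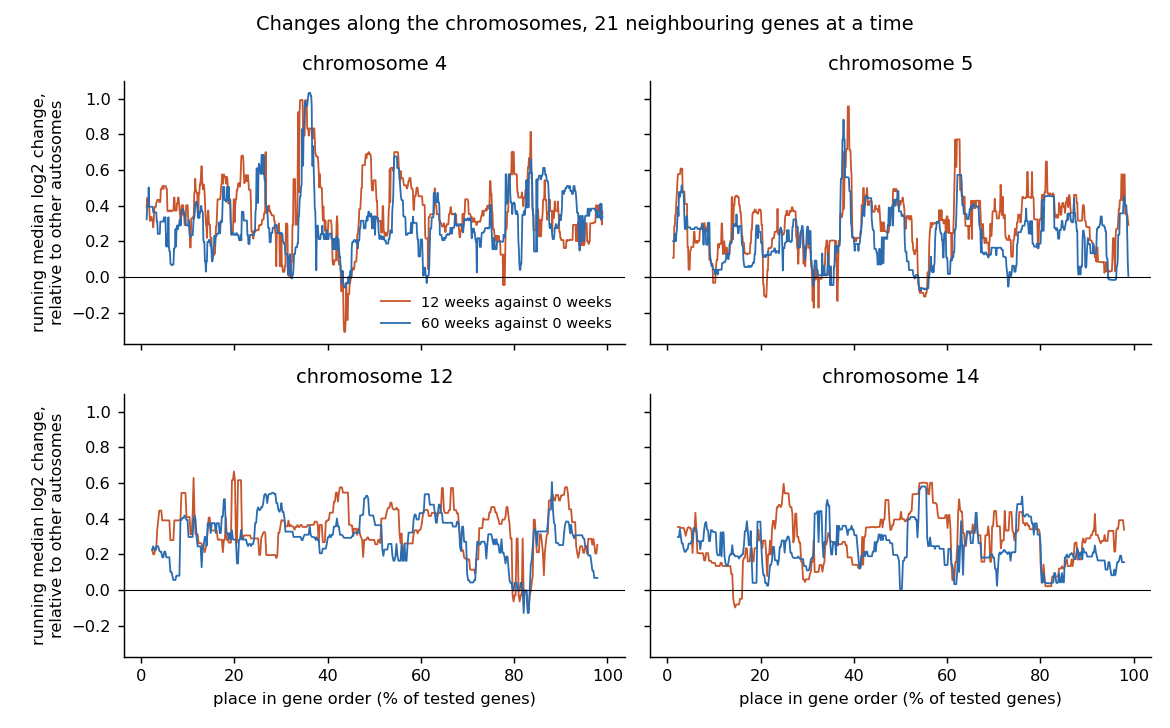
Running median of the log2 change over 21 neighbouring tested genes, relative to the other autosomes, against place in gene order along chromosomes 4, 5, 12 and 14, at 12 weeks (orange) and 60 weeks (blue). The lines lie above 0 over most of each chromosome, with a high peak after Tusc1 on chromosome 4 and near the chemokine genes of chromosome 5.

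Runs of 21 neighbouring genes gave a finer view. At 12 weeks 97.0%, 94.3%, 96.4% and 97.8% of the runs on chromosomes 4, 5, 12 and 14 had a median above 0. At 60 weeks the shares were 97.9%, 94.4%, 97.1% and 100%. The lowest run of chromosome 4 at 12 weeks went from Cdkn2c, a CDK inhibitor gene, into the Cyp4a family of fatty acid hydroxylases, at −0.31. On chromosome 12 the lowest run at 12 weeks started in the Serpina1 family of protease inhibitors and ended at Eml1, at −0.11. On chromosome 5 the run from Atp8a1 to Fip1l1 lay at −0.17, and on chromosome 14 the run from Camk2g to Plac9a at −0.10. Runs that stood highest at 12 weeks went from Tusc1 to Atg4c on chromosome 4 (1.0), from Afp to U90926 on chromosome 5 (0.96), from Prkar2b to Dock4 on chromosome 12 (0.67) and from Emc9 to Ripk3 on chromosome 14 (0.60). At 60 weeks the highest runs were Nfia to Oma1 (1.03), Rufy3 to Btc (0.88), Slc25a29 to Tnfaip2 (0.61) and Psme1 to Adcy4 (0.58). Runs overlap and share genes, so their number is no count of independent stretches.

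Dim and bright genes were both shifted, and over the 4 chromosomes together the dimmest were shifted least. Tested genes were divided into 5 classes by their mean level over all arrays. From the dimmest to the brightest class, the 4 chromosomes together lay at 0.21, 0.30, 0.34, 0.36 and 0.32 at 12 weeks relative to other autosomes' genes of the same class. At 60 weeks the values were 0.17, 0.19, 0.28, 0.30 and 0.24. The share of members above the other autosomes' median rose from 61.2% in the dimmest class to 77.9% in the brightest at 12 weeks. Changes of dim genes scatter more: the range between the quartiles in the dimmest class was 1.43 on the 4 chromosomes and 1.22 elsewhere.

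**Figure D3:**
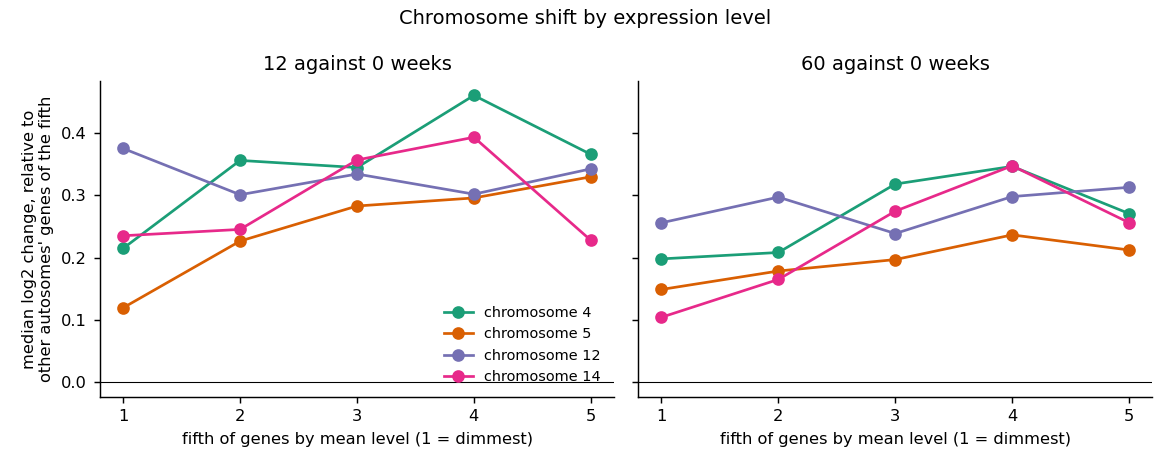
Median log2 change in each of 5 classes of expression level (1 the dimmest, 5 the brightest), relative to the genes of the other autosomes in the same class, with 1 line per chromosome. All points lie above 0; the lowest are the dimmest class of chromosome 5 at 12 weeks (0.12) and of chromosome 14 at 60 weeks (0.10).

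The chromosomes differed in shape. On chromosome 5 the median rose with level at 12 weeks, over 0.12, 0.23, 0.28, 0.30 and 0.33. Chromosome 12 was flat, at 0.38, 0.30, 0.33, 0.30 and 0.34. Chromosome 14 was highest in the fourth class, at 0.39, and lower in the brightest, at 0.23.

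Probes that the choice of chromosomes did not use gave the same side for protein-coding genes. The arrays carry further probes for many genes, of which 350, 278, 153 and 142 on chromosomes 4, 5, 12 and 14 could be measured. Their medians at 12 weeks were 0.43, 0.24, 0.40 and 0.24, and at 60 weeks 0.25, 0.23, 0.31 and 0.26, relative to such probes elsewhere. On the 13 other chromosomes they ranged from −0.15 to 0.12 at 12 weeks and from −0.07 to 0.02 at 60 weeks. These probes measure the RNA of the same genes in the same samples and are not independent samples. Of 778 members with several probes, all probes were higher in 443 and all lower in 182 at 12 weeks, and the probes disagreed in 153. At 60 weeks the numbers were 445, 158 and 175.

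Probes that the array places on these chromosomes without a RefSeq gene moved little. Their medians at 12 weeks were 0.14, 0.04, 0.05 and 0.02 (384, 393, 257 and 290 probes), and at 60 weeks 0.11, 0.07, 0.14 and 0.04. On the 13 other chromosomes they ranged from −0.12 to 0.04 and from −0.09 to 0.09. Most of these probes were dim. The bright ones gave 0.24, −0.25, 0.25 and −0.08 at 12 weeks, from only 29, 24, 20 and 44 probes, so they did not all lie on one side. Probes can share a stretch of the genome. The bright ones came from 22, 18, 14 and 19 distinct stretches, and all these probes from 151, 143, 109 and 94.

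Genes were taken near the median of each chromosome's changes. Pink1, a kinase of mitochondrial quality control, had log2 levels of 3.51, 3.49 and 3.45 at 0 weeks, then 3.94, 3.53 and 3.74 at 12 weeks, then 3.48, 3.52 and 3.51 at 60 weeks. All 3 arrays at 12 weeks were above those at 0 weeks, while the arrays at 60 weeks overlapped them. Its change at 12 weeks was 0.26 ± 0.11 (SE, n = 3 per group; limma, adjusted p = 0.0962).
Tec, a tyrosine kinase of immune signalling, had levels of 0.90, 0.79 and 0.79 at 0 weeks, then 1.06, 0.85 and 1.08 at 12 weeks, then 1.48, 1.56 and 1.28 at 60 weeks. The 12 weeks arrays overlapped the 0 weeks arrays and the 60 weeks arrays did not. The change was 0.17 at 12 weeks (limma, adjusted p = 0.241), and Tec rose at 60 weeks (limma, adjusted p = 0.00364).
Klhdc1, which encodes a kelch-domain protein, had levels of −1.87, −2.04 and −1.71, then −1.46, −1.84 and −1.65, then −1.30, −1.65 and −1.50. Its groups overlapped between 0 and 12 weeks. The change at 12 weeks was 0.23 (limma, adjusted p = 0.235).
Sucla2, a subunit of the succinyl-CoA synthetase of the citric acid cycle, had levels of 4.41, 4.42 and 4.54, then 4.63, 4.72 and 4.63, then 4.58, 4.55 and 4.72. All arrays at 12 and 60 weeks were above those at 0 weeks. The changes were 0.21 and 0.16 (limma, adjusted p = 0.0949 and 0.2). Of these 4 genes, Tec at 60 weeks alone passed the threshold.

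Genes with CpG-rich and with CpG-poor promoters both lay higher. Of the tested members 2271 (82.9%) had a promoter in the RefSeq table and 1811 had exactly 1. Of the latter 67.1% were CpG-rich, compared with 63.2% on the other autosomes. Relative to genes of the same class elsewhere, CpG-rich members lay at 0.33 at 12 weeks and CpG-poor members at 0.27. At 60 weeks they lay at 0.25 and 0.24. Chromosome 14 differed most between the classes, at 0.31 and 0.13 at 12 weeks. The NF-kB consensus was present in 104 of the 1811 promoters (5.74%, elsewhere 4.79%).

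Gene families whose members are spread over many chromosomes offer a comparison within one function. Ribosomal protein genes, which encode the structural proteins of cytoplasmic ribosomes, had 14 tested members on the 4 chromosomes and 59 elsewhere. At 12 weeks the median change was −0.25 on the 4 chromosomes, where 2 fell and 0 rose, and −0.43 elsewhere, where 46 of 59 fell. The 2 that fell were Rpl5 (−0.42, limma, adjusted p = 0.0182) and Rps7 (−0.37, limma, adjusted p = 0.0264). Among all tested genes 22.7% fell at 12 weeks. At 60 weeks the medians were 0.08 and −0.03, and no gene of either group passed the threshold. Probes of ribosomal protein genes may also bind RNA of their processed pseudogenes, which makes single values uncertain.

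Mitochondrial genes showed a like offset. For oxidative phosphorylation, 8 members were tested, and at 12 weeks their median was 0.12 with none past the threshold. Elsewhere it was −0.27, with 27 of 69 falling and 3 rising. Among all tested genes 19.1% rose and 22.7% fell at 12 weeks. Sdhb, a subunit of succinate dehydrogenase on chromosome 4, changed by 0.37 (limma, adjusted p = 0.0506). The 10 mitochondrial ribosomal protein genes had a median of 0.10, with 2 rising, and the 64 elsewhere −0.11, with 1 rising and 10 falling. The risers were Mrpl20 (0.95, limma, adjusted p = 0.000312) and Mrpl37 (0.47, limma, adjusted p = 0.0318).

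Proteasome genes on the 4 chromosomes were called higher at 12 weeks in 9 of 12 cases, where 19.1% of all tested genes were. The chromosomes were chosen for higher changes of their genes, so nothing is read from this count. The median of the 12 tested members was 0.40, with 9 rising, and that of the 33 elsewhere −0.02, with 5 rising and 3 falling. Psmd6, a regulatory subunit encoded on chromosome 14, had levels of 3.28, 3.26 and 3.44 at 0 weeks, then 4.14, 3.90 and 4.10 at 12 weeks, then 3.21, 3.07 and 3.43 at 60 weeks. Only the 12 weeks arrays stood apart. Psmb5, a catalytic subunit, rose by 0.58 at 12 weeks (limma, adjusted p = 0.00766). The activator subunits Psme1 and Psme2 rose at both times, by 0.29 and 0.43 at 12 weeks and by 0.63 and 0.72 at 60 weeks. At 60 weeks 4 of the 12 rose, where 16.7% of all tested genes did, and the medians were 0.21 and −0.12.

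DNA replication genes fell at 60 weeks, on these chromosomes and elsewhere. Of 16 DNA replication genes 9 fell and 1 rose at 60 weeks, with a median of −0.61. Elsewhere 30 of 38 fell, with a median of −0.98. Among all tested genes 16.1% fell and 16.7% rose at 60 weeks. Rrm2, a subunit of ribonucleotide reductase on chromosome 12, had levels of 4.85, 5.0 and 4.94 at 0 weeks, then 4.28, 4.46 and 4.28 at 12 weeks, then 3.63, 3.84 and 3.75 at 60 weeks, so the 3 groups did not overlap. Rfc5, a clamp loader subunit, and Pole, the catalytic subunit of DNA polymerase epsilon, fell at 60 weeks by 1.32 and 1.17 on the log2 scale (limma, adjusted p = 0.000199 and 0.000326). Orc3, an origin recognition subunit on chromosome 4, rose by 0.51 at 60 weeks (limma, adjusted p = 0.0218). Of 10 mitosis genes 3 rose at 12 weeks (Cdca8, Kif2c and Smc2), and at 60 weeks 1 rose and 3 fell. Their medians were 0.28 and 0.03, against −0.16 and −0.30 elsewhere. The share of all tested genes that rose at 12 weeks was 19.1%.

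**Figure D4:**
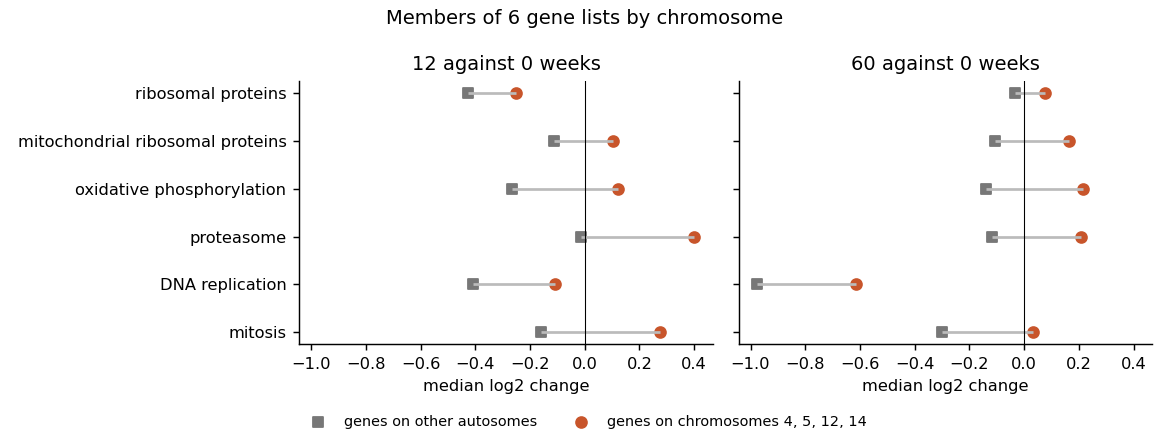
Median log2 change of 6 gene lists at 12 weeks (left) and 60 weeks (right), for members on chromosomes 4, 5, 12 and 14 (circles) and on the other autosomes (squares). In each list and at both times the circle lies to the right, by 0.17 to 0.43 at 12 weeks and by 0.11 to 0.36 at 60 weeks.

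The median on these chromosomes lay above the other median in all 6 lists, whichever way the list moved. At 12 weeks the difference was 0.17 for ribosomal proteins, 0.21 for mitochondrial ribosomal proteins, 0.39 for oxidative phosphorylation, 0.42 for the proteasome, 0.30 for DNA replication and 0.43 for mitosis. The lists hold 8 to 16 members on these chromosomes, and the differences were not tested. The chromosomes were chosen because changes of their genes lay higher, and the list members are among those genes. The side on which the medians lie therefore follows largely from that choice and is no further support for the shift.

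Chemokines are secreted proteins that attract leukocytes. Of 9 tested chemokine genes 6 rose and 1 fell at 12 weeks, and 8 rose at 60 weeks. Elsewhere 4 of 10 rose at 12 weeks and 5 of 10 at 60 weeks. Of all tested genes 19.1% rose and 22.7% fell at 12 weeks, and 16.7% and 16.1% did at 60 weeks. Cxcl5, a neutrophil attractant, had levels of 1.59, 1.45 and 1.34 at 0 weeks, then 8.72, 7.70 and 8.23 at 12 weeks, then 7.01, 7.15 and 7.36 at 60 weeks. The treated arrays lay far above those at 0 weeks and the 3 groups did not overlap. Cxcl5 rose by 6.76 ± 0.23 (SE, n = 3 per group) at 12 weeks (limma, adjusted p = 5.24e-07) and by 5.71 at 60 weeks (limma, adjusted p = 1.62e-06).

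For a gene that was not above background in 1 group, the fold is a lower bound. It sets the mean of the brighter group against, on each dim array, the lowest signal of any probe well above background or the gene's own signal, whichever is higher. The bound holds only for the brightest probe and the main background subtraction. With normexp, another background correction, the fitted log2 changes were smaller than the bounds given above and below for many genes. At 12 weeks they were 2.99 for Cxcl2, 2.76 for Cxcl3, 5.92 for Cdkn2b, 5.37 for Cdkn2a and 6.38 for Decr1. Hspb1 gave 4.43, Adamdec1 3.88, Adam28 3.30 and Dach1 3.21. The falls were −4.68 for Tmprss11c, −2.99 for Megf6 and −1.66 for Bach2. At 60 weeks Decr1 gave 1.73, Zfp37 2.50 and Zfp982 2.52. For these genes the printed folds are no bounds under normexp. Cxcl2, another neutrophil attractant, had measured levels of −6.80, −6.59 and −6.75 at 0 weeks, then 0.47, −0.78 and −0.23 at 12 weeks, then −2.07, −2.06 and −1.60 at 60 weeks. It was not above background at 0 weeks and rose at least 23.6-fold at 12 weeks and at least 7.1-fold at 60 weeks (limma, adjusted p = 2.05e-06 and 1.05e-05), with measured means of −6.71, −0.18 and −1.91. Cxcl3 had levels of −6.66, −6.63 and −6.55, then 0.01, −0.40 and −0.92, then −0.50, −1.0 and −0.48. Here the 12 and 60 weeks arrays overlapped. Cxcl3 rose at least 19.8-fold and at least 16.9-fold, with measured means of −6.61, −0.43 and −0.66.

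Cxcl1 was measurable in all groups, at 0.37, 0.18 and −0.01, then 3.23, 1.99 and 2.45, then 2.28, 1.93 and 2.41. It rose by 2.38 ± 0.29 (SE, n = 3 per group) at 12 weeks and by 2.03 at 60 weeks (limma, adjusted p = 0.000441 and 0.00121). The promoters of Cxcl1, Cxcl2 and Cxcl3 are the ones printed above with the NF-kB stretch. Of the other genes in this cluster, Ppbp, Pf4, Epgn, Areg and Btc had 1 promoter in the table without a match. Pf4, which encodes platelet factor 4, went the other way at 12 weeks: its levels were −0.21, −0.83 and −0.13 at 0 weeks, then −2.02, −1.25 and −2.02 at 12 weeks, then 2.0, 2.47 and 2.61 at 60 weeks. It fell at 12 weeks and rose at 60 weeks (limma, adjusted p = 0.0054 and 0.000199).

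Beside the chemokines lie the genes of 4 EGF-family ligands, growth factors for epithelium, and 4 of 4 rose at both times. Of 4 such genes elsewhere 2 rose and 1 fell at 12 weeks, and 1 rose and 1 fell at 60 weeks. Among all tested genes 19.1% rose at 12 weeks and 16.7% at 60 weeks. Btc had levels of −1.80, −1.89 and −1.70, then 0.39, 0.23 and 0.52, then −0.20, −0.29 and −0.31. The 3 groups were apart. Btc rose by 2.18 and 1.53, Epgn by 2.29 and 1.82, Ereg by 1.71 and 0.84 and Areg by 0.85 and 0.48 at 12 and 60 weeks. The calls of Areg (limma, adjusted p = 0.0462) and Ereg (limma, adjusted p = 0.0436) at 60 weeks ended in 13 and 10 of 20 alternative analyses, among them those without any 1 of the 6 arrays at 0 and 60 weeks. Over the 21 tested genes from Afp to U90926 that hold both families, 13 rose and 3 fell at 12 weeks, and 12 rose and 2 fell at 60 weeks. This is the highest run of the chromosome at 12 weeks, and the highest run at 60 weeks, Rufy3 to Btc, overlaps it. Nothing is therefore read from either count. Ppbp, another chemokine gene, rose at least 22.8-fold and at least 10.4-fold, with measured means of −4.96, −0.22 and −1.35. Mthfd2l, which lies between the families, changed by 0.23 and 0.22 without passing the threshold.

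**Figure D5:**
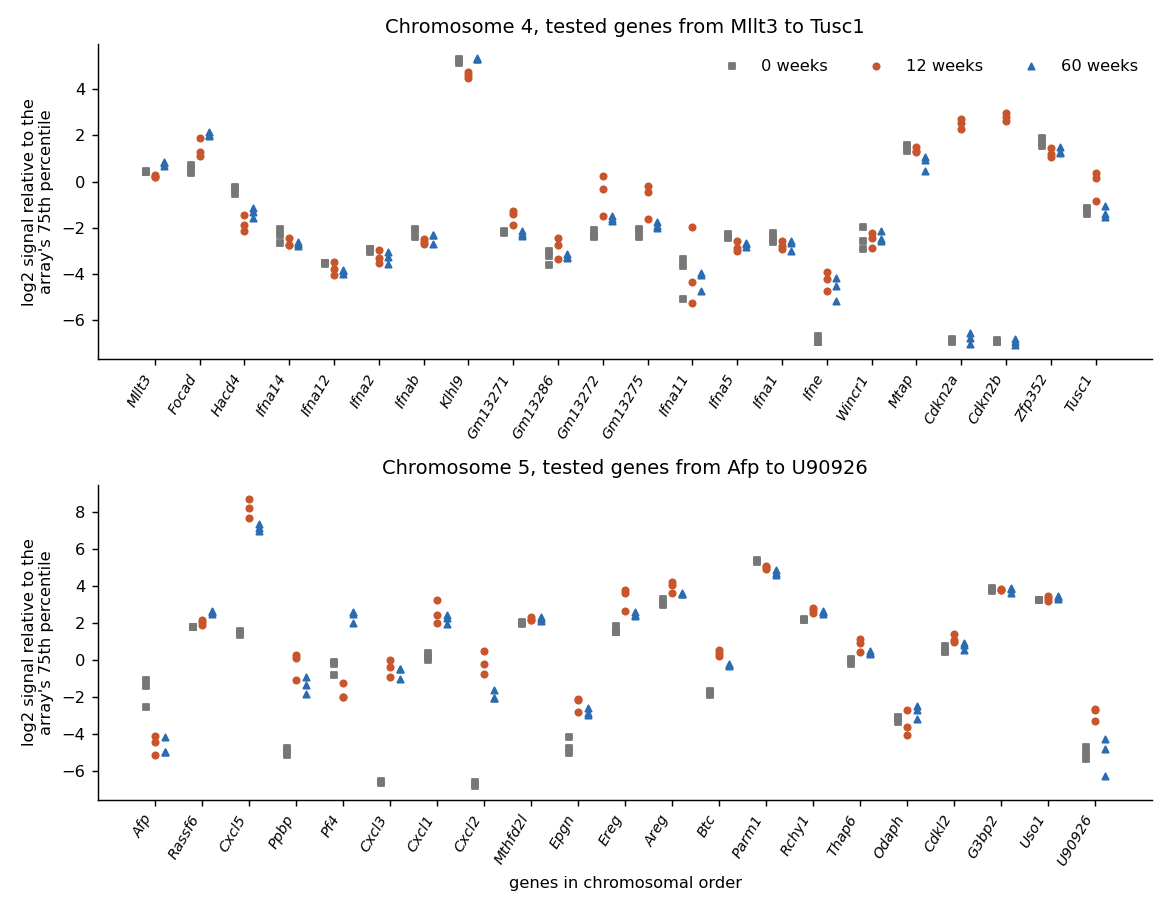
Log2 level relative to the array's 75th percentile on each array (squares 0 weeks, circles 12 weeks, triangles 60 weeks) for the tested genes in chromosomal order from Mllt3 to Tusc1 on chromosome 4 and from Afp to U90926 on chromosome 5. Cdkn2a and Cdkn2b are high at 12 weeks alone, while the EGF-ligand genes and the chemokine genes other than Pf4 are higher at 12 and 60 weeks than at 0 weeks.

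Oligoadenylate synthetases are interferon-induced sensors of double-stranded RNA, and all 9 that were tested lie on chromosome 5. Of these, 3 rose and 1 fell (Oas1d) at 12 weeks, where 19.1% and 22.7% of all tested genes did. At 60 weeks 7 rose, where 16.7% of all tested genes did. Oas1a had levels of −3.36, −3.31 and −1.32 at 0 weeks, then 3.81, 3.02 and 3.48 at 12 weeks, then 3.96, 3.78 and 3.61 at 60 weeks. The treated arrays overlapped each other and lay above 0 weeks, where array 3 was the highest. Oas1a rose by 6.10 at 12 weeks and 6.44 at 60 weeks (limma, adjusted p = 4.99e-05 and 4.4e-05), and Oas1f by 3.86 and 4.13. Oas3 rose at both times (2.25 and 3.32; limma, adjusted p = 0.0228 and 0.0052), and at 0 weeks 1 of 3 arrays was above background. Its 12 weeks call ended in 6 alternatives, among them normexp, another background correction (0.59), and those without 0 weeks array 1 or 2 or without 12 weeks array 1 or 3. Oas1 genes are close copies of each other, and their probes may not tell them apart.

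Of 5 tested NF-kB pathway genes 4 rose at 12 weeks and 3 at 60 weeks. Of 30 elsewhere 10 rose and 5 fell at 12 weeks, and 10 rose and 4 fell at 60 weeks. Among all tested genes 19.1% rose and 22.7% fell at 12 weeks, and 16.7% and 16.1% did at 60 weeks. Nfkbia, the inhibitor of NF-kB that the factor itself induces, is on chromosome 12 and its promoter holds a match to the consensus. Its levels were 5.05, 5.24 and 5.23 at 0 weeks, then 6.40, 5.83 and 6.30 at 12 weeks, then 6.13, 6.18 and 6.20 at 60 weeks. All 6 treated arrays lay above the 0 weeks arrays. Nfkbia rose by 1.0 and 0.99 (limma, adjusted p = 0.00121 and 0.0015). Zc3h12a, an RNase that cuts cytokine mRNA, rose by 2.73 and 2.67, and Traf3, an adaptor of TNF receptors, by 0.99 and 0.63. Tlr4, the endotoxin receptor, rose by 1.32 at 12 weeks (limma, adjusted p = 0.00233) and changed by 0.41 at 60 weeks (limma, adjusted p = 0.2).

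On chromosome 4, Decr1, Cdkn2b and Cdkn2a were not above background at 0 weeks and were measurable at 12 weeks. Cdkn2b, which encodes the CDK inhibitor p15, had measured levels of −6.93, −6.92 and −6.84 at 0 weeks, then 2.81, 2.97 and 2.60 at 12 weeks, then −6.92, −6.80 and −7.06 at 60 weeks. It was above background at 12 weeks only. Cdkn2b rose at least 185-fold at 12 weeks (limma, adjusted p = 3.15e-09) and was at least 183-fold lower at 60 weeks than at 12 weeks (limma, adjusted p = 1.02e-09), with measured means of −6.90, 2.79 and −6.93. Its neighbour Cdkn2a, which encodes p16 and p19Arf, had levels of −6.94, −6.89 and −6.81, then 2.53, 2.70 and 2.28, then −6.53, −6.76 and −7.02. The pattern over the arrays was that of Cdkn2b. Cdkn2a rose at least 152-fold and was at least 149-fold lower at 60 weeks than at 12 weeks (limma, adjusted p = 1.2e-08 and 6.62e-09), with measured means of −6.88, 2.50 and −6.77.

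Mtap, the methionine salvage enzyme encoded next to Cdkn2a, had levels of 1.59, 1.31 and 1.52, then 1.51, 1.32 and 1.27, then 0.92, 0.46 and 1.06. It stayed measurable on all arrays, and the 60 weeks arrays alone lay lower. Mtap fell by 0.66 at 60 weeks (limma, adjusted p = 0.0164), and without 0 weeks array 1 or 3 it missed the threshold. Of the 22 tested genes from Mllt3 to Tusc1 around Cdkn2a, 8 rose and 5 fell at 12 weeks (36.4% and 22.7%, where 19.1% and 22.7% of all tested genes did), and 3 rose and 2 fell at 60 weeks (13.6% and 9.09%, where 16.7% and 16.1% did). Focad rose by 0.89 and 1.51, and Klhl9, a ubiquitin ligase adaptor, fell by 0.60 at 12 weeks. The interferon alpha genes there are close copies, and their values are uncertain. Ifne, the epithelial interferon, was not above background at 0 weeks and rose at least 1.39-fold and at least 1.10-fold (limma, adjusted p = 0.000235 and 0.000616), with measured means of −6.85, −4.27 and −4.61.

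Decr1 encodes a reductase for the beta-oxidation of unsaturated fatty acids. Its measured levels were −6.66, −6.66 and −6.63 at 0 weeks, then 3.92, 3.59 and 3.75 at 12 weeks, then −2.06, −0.88 and −1.33 at 60 weeks. No arrays of the 3 groups overlapped. Decr1 rose at least 360-fold at 12 weeks and at least 9.94-fold at 60 weeks (limma, adjusted p = 9.64e-08 and 4.49e-06), with measured means of −6.65, 3.75 and −1.43. With the mean of all its probes, the fitted log2 changes of Decr1 were 6.48 and 2.13 in place of 10.40 and 5.22. Prkaa2, the catalytic alpha-2 subunit of the AMP-activated kinase, had levels of −0.55, −0.53 and −0.68, then 0.30, 0.14 and 0.55, then −6.91, −6.77 and −7.08. It rose by 0.92 at 12 weeks (limma, adjusted p = 0.00102) and was at least 17.5-fold lower at 60 weeks (limma, adjusted p = 3.92e-08), with measured means of −0.59 and −6.92 at 0 and 60 weeks.

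Other genes of chromosome 4 fell. Megf6, an EGF-domain protein, fell at least 33.0-fold at 12 weeks, with measured means of 0.30 and −5.48. Its fall at 60 weeks, to −1.66, missed the threshold without any 1 of the 0 weeks arrays and without 60 weeks array 1 or 3. The transcription factor genes Foxo6, Bach2 and Dmrta2 fell at both times. Foxo6 fell by 5.43 and 3.66 on the log2 scale, and Bach2 at least 7.18-fold at 12 weeks with measured means of −1.94 and −6.34. Zfp37 and Zfp982 rose at least 21.1-fold and at least 23.6-fold at 60 weeks, with measured means of −5.53 and −0.27 and of −5.43 and −0.18. Zfp982 has near-identical neighbours, so its probe may bind several genes.

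The guanylin genes of chromosome 4, made by colon epithelium, were high at 12 weeks alone. Guca2a, which encodes the guanylate cyclase activator guanylin, had levels of −3.74, −3.88 and −4.19 at 0 weeks, then 4.27, −1.12 and 3.84 at 12 weeks, then −4.54, −4.00 and −4.74 at 60 weeks. The second 12 weeks array lay well below the other two but above every 0 weeks array. Guca2a rose by 6.27 ± 1.22 (SE, n = 3 per group; limma, adjusted p = 0.00435) at 12 weeks. Guca2b, the gene of uroguanylin, rose at least 13.4-fold at 12 weeks with measured means of −6.20 and −0.99. Of 9 colon epithelium genes on the 4 chromosomes 5 rose at 12 weeks, and 2 rose and 1 fell at 60 weeks. Of 26 elsewhere 11 rose and 2 fell at 12 weeks, and 5 rose and 3 fell at 60 weeks. Among all tested genes 19.1% rose and 22.7% fell at 12 weeks. The shares that rose at 60 weeks, 22.2% here and 19.2% elsewhere, lay near the 16.7% of all tested genes. The 2 that rose at 60 weeks on the 4 chromosomes were transcription factor genes, Foxa1 (0.94, limma, adjusted p = 0.000799) and Gata4. The list holds Gata4 although it is a gene of the proximal gut, so its rise is no gain of a colon marker.

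On chromosome 5, Hspb1, a small heat shock protein gene, rose at least 71.3-fold at 12 weeks and at least 3.14-fold at 60 weeks, with measured means of −5.83, 1.42 and −3.09. P2rx7, an ATP-gated channel gene, was above background on 1 of 3 arrays at 0 weeks and rose by 4.38 and 6.78, or by 2.61 and 3.88 with the deposited value table. Tmprss11c, a membrane serine protease gene, went from 1.95, 1.52 and 1.81 at 0 weeks to −7.14, −6.56 and −6.61 at 12 weeks and −6.79, −6.61 and −6.91 at 60 weeks. It was measurable at 0 weeks only. It fell at least 93.5-fold and at least 89.3-fold (limma, adjusted p = 6.28e-08 and 4.32e-08), with measured means of 1.76, −6.77 and −6.77. Spp1, the osteopontin gene, had levels of 2.59, 2.68 and 2.80, then −3.43, −1.11 and −2.69, then −3.05, −4.36 and −3.52. The treated arrays overlapped each other and lay far below 0 weeks. Spp1 fell by 5.10 on the log2 scale at 12 weeks and fell by 6.33 at 60 weeks (limma, adjusted p = 0.000231 and 8.34e-05). Alox5ap, needed for leukotriene synthesis, fell by 4.61 and 2.55, and Fscn1, an actin bundling protein gene, by 3.02 and 6.21.

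On chromosome 12, Tmem30b, a subunit of phospholipid flippases, had levels of −3.35, −3.48 and −4.02 at 0 weeks, then 2.28, 2.31 and 2.23 at 12 weeks, then −0.22, −0.42 and 0.14 at 60 weeks. The groups did not overlap. Tmem30b rose by 5.89 and 3.45 (limma, adjusted p = 4.71e-07 and 8.36e-06), but with the deposited value table the 12 weeks value was 1.53 and the 60 weeks value turned to −0.34 (limma, adjusted p = 0.579). Prkar2b, a regulatory subunit of protein kinase A, had levels of 0.46, 0.82 and 0.25, then 1.45, 2.69 and 1.61, then 4.64, 4.70 and 4.62. The level was higher at each later time on all arrays. Prkar2b rose by 1.41 and 4.14 (limma, adjusted p = 0.00703 and 3.09e-05).

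Mycn, a transcription factor gene of the Myc family, had levels of −0.97, −0.81 and −1.12, then −0.83, −2.44 and −1.02, then −6.87, −6.77 and −6.86. Only 60 weeks stood apart. Mycn was at least 13.5-fold lower at 60 weeks than at 0 weeks (limma, adjusted p = 1.3e-05), with measured means of −0.97 and −6.83. Pxdn, the peroxidasin gene, had levels of 0.58, 0.43 and 0.16, then 2.11, 1.87 and 1.67, then −4.21, −5.82 and −4.19. It rose by 1.49 at 12 weeks (limma, adjusted p = 0.0182), a call that ended without 0 weeks array 3 or 12 weeks array 1, and fell by 5.13 on the log2 scale at 60 weeks (limma, adjusted p = 4.55e-05). With the deposited value table, and with probes above background on all arrays, the changes of Pxdn were 0.89 and −0.87. Serpina9 and Eml1, in the part of the chromosome with the lowest runs, fell by 3.77 and 3.54 at 12 weeks and by 4.13 and 3.1 at 60 weeks. Akt1, a kinase of growth factor signalling, rose by 0.43 at 12 weeks (limma, adjusted p = 0.00423) and changed by 0.21 at 60 weeks (limma, adjusted p = 0.0895). Wars, the tryptophanyl-tRNA synthetase gene, rose by 1.54 and 1.53.

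On chromosome 14, Gata4, a transcription factor gene of the proximal gut, had levels of −4.54, −4.81 and −4.05 at 0 weeks, then −1.96, −2.31 and −1.81 at 12 weeks, then 1.37, 1.33 and 1.39 at 60 weeks. Each later group lay wholly above the one before. Gata4 rose by 2.44 and 5.84 (limma, adjusted p = 5.01e-05 and 5.72e-07), and at 0 weeks 1 of 3 arrays was above background. Dach1, a transcriptional cofactor gene, had levels of −4.96, −6.86 and −4.97, then 0.25, 0.60 and 0.23, then 0.37, 0.53 and 0.51. Dach1 rose at least 34.2-fold and at least 37.0-fold (limma, adjusted p = 3.43e-05 and 3.53e-05), with measured means of −5.60, 0.36 and 0.47. Adamdec1 and Adam28, neighbouring genes of metalloproteinases, were measurable at 12 weeks only and rose at least 47.9-fold and at least 37.6-fold, with measured means of −6.88 and 0.84 and of −5.79 and 0.49.

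Bmp4, a ligand that restrains growth in the intestinal crypt, had levels of 3.24, 2.98 and 2.88, then 2.07, 1.86 and 2.02, then −0.26, −0.45 and −0.11. Each later group lay wholly below the one before. Bmp4 fell by 1.05 and 3.31 on the log2 scale (limma, adjusted p = 0.00054 and 1.54e-06). Plac9a, which shares most of its sequence with Plac9b, had levels of 5.06, 4.98 and 5.40, then 2.40, 1.83 and 2.59, then 0.43, 0.77 and 0.95. It fell by 2.88 and 4.43 on the log2 scale (limma, adjusted p = 3.87e-05 and 4.7e-06). Fhit, a hydrolase gene, rose by 4.20 and 3.61.

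The highest run of chromosome 14 held 21 tested genes from Emc9 to Ripk3, of which 12 rose and 0 fell at 12 weeks. At 60 weeks 8 rose and 3 fell (38.1% and 14.3%, where 16.7% and 16.1% of all tested genes did). The run was picked for its 12 weeks median. It shares most of its genes with the highest run at 60 weeks, Psme1 to Adcy4, so nothing is read from either count. Ripk3, a kinase of necroptotic cell death, rose by 0.76 and 0.98. Psme2 of this run is the proteasome activator gene given above, and Rec8, a meiotic cohesin gene, rose by 3.61 at 12 weeks and changed by 0.78 at 60 weeks without passing the threshold.

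Of 28 tested tumour suppressor genes and oncogenes on the 4 chromosomes, 11 rose and 2 fell at 12 weeks (39.3% and 7.14%, where 19.1% and 22.7% of all tested genes did). At 60 weeks 5 rose and 4 fell (17.9% and 14.3%), which is near the 16.7% and 16.1% of all tested genes. Of the 29 on the other autosomes, 5 rose and 5 fell at 12 weeks and 8 rose and 6 fell at 60 weeks. Jak1, a cytokine receptor kinase, rose by 0.67 and 0.88, Mycl by 1.87 and 1.53, and Epha2, a receptor tyrosine kinase, by 0.83 and 0.57. Bap1, a deubiquitinase of chromatin, rose by 0.72 and 0.40, and Arid1a, a chromatin remodelling subunit, by 0.61 at 12 weeks (limma, adjusted p = 0.015, and above 0.05 without 0 weeks array 3). Runx3 fell by 0.78 and 1.02, but its changes were −0.47 and −0.40 with normexp and −2.71 and −2.82 with the mean of all its probes, and with the slide's row as a block both missed the threshold. Rb1 fell by 0.63 at 12 weeks and Brca2 fell by 1.01 at 60 weeks. The list was chosen with results of these data known.

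From 12 to 60 weeks the 4 chromosomes lay slightly lower relative to a reference that itself rose on chromosomes 10 and 19. Relative to the other autosomes, the median change was −0.08 on chromosome 4, −0.06 on chromosome 5, −0.05 on chromosome 12 and −0.07 on chromosome 14. Without chromosomes 10 and 19 in the reference it was smaller on chromosomes 4, 12 and 14, as given below. Of the stretches defined above, 7 of 40 on the 4 chromosomes lay above the reference median. On the 13 autosomes other than these and chromosomes 10 and 19, only 40 of 130 did, so the lower position is not particular to the 4. Between 12 and 60 weeks 467 members rose and 540 fell, where 38.3% of all tested genes were called, 20.7% as higher and 17.6% as lower. Cdkn2a, Cdkn2b, Adamdec1 and Adam28 are among the genes that returned below background, and Gata4, Prkar2b and P2rx7 among those that rose further.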

How the data were processed

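Per the file headers, the 9 single-colour arrays follow a design on mm9, and the authors read them with Feature Extraction 10.7.3.1 (Agilent; protocol GE1_107_Sep09). The deposited scanner files hold a background-subtracted intensity per spot. Values here are log2 of that intensity minus the log2 of the array's 75th percentile. Outlier spots were left out, spots of 1 probe averaged, and the brightest passing probe taken per gene. The deposited value table holds a signal that is the authors' intensity divided by a constant close to the array's 75th percentile, as its values show; its normalization is not given in the sources used here, and it served as an alternative.

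Genes were named and ordered through RefSeq (GRCm38.p6); no coordinate of a probe was converted. Changes were fitted with limma 3.58.1 (lmFit, eBayes; R 4.3.3) over all 9 arrays, with Benjamini-Hochberg adjustment over 14033 genes; tables and plots used Python 3.11.15, pandas 2.3.3 and matplotlib 3.10.9. The script for the fit was tested on simulated data. For each chromosome and comparison with 0 weeks, the text draws on the 3 largest called rises and falls without overlap, a fixed panel, the 3 genes nearest the median, genes bounding a run, and members of the lists and neighbourhoods described. The members, panel and lists were chosen with earlier results of these data known. The background alternative (normexp, offset 50) used the median signals of spot and background. The number of arrays limits the precision.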

Additional observations from a re-analysis of the deposited data

Results flagged for a closer look

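For 38 members of chromosomes 4, 5, 12 and 14 named in the analysis, the change from 0 weeks differed between 12 and 60 weeks, tested as the difference itself (limma contrast of 60 minus 12 weeks with Benjamini-Hochberg adjustment; log2 scale). Among all tested genes 38.3% were called in that contrast. Many of the named genes were picked for large called changes against 0 weeks, so nothing is read from the number 38. Fitted values of genes not above background in a group are no folds.

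On chromosome 4 the differences were −9.72 for Cdkn2b, −9.27 for Cdkn2a, −7.25 for Prkaa2, −6.72 for Zfp618, −5.18 for Decr1, −3.83 for Dmrta2 and −0.55 for Mtap. They were 3.82 for Megf6, 3.30 for Zfp37, 1.84 for Zfp982, 1.77 for Foxo6, 1.14 for Adgrb2, 0.62 for Jun and 0.43 for Rps6.

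On chromosome 5 they were −4.51 for Hspb1, −3.19 for Fscn1, −1.73 for Cxcl2, −1.05 for Cxcl5, −0.87 for Brca2 and −0.86 for Ereg. P2rx7 (2.40), Alox5ap (2.05) and Tec (0.44) were higher at 60 weeks than at 12 weeks.

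On chromosome 12 they were −6.62 for Pxdn, −6.14 for Akap5, −5.40 for Mycn, −3.44 for Nrcam and −2.44 for Tmem30b, and 2.74 for Prkar2b and 0.37 for Rps29.

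On chromosome 14 they were −7.11 for Adamdec1, −6.68 for Adam28, −3.47 for Fam124a, −2.26 for Bmp4 and −1.55 for Plac9a, and 3.40 for Gata4, 2.48 for Tbc1d4 and 0.59 for Rb1.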

How the results depend on the processing

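No median change of chromosome 4, 5, 12 or 14 against 0 weeks changed sign in any alternative, and the counts of called members stayed within 1.5 times except when the slide's row was a block. Values below are in the order of chromosomes 4, 5, 12 and 14. With no filter on dim probes the medians were 0.21, 0.14, 0.18 and 0.10 (12 against 0 weeks), 0.15, 0.071, 0.15 and 0.059 (60 against 0) and −0.020, −0.019, −0.017 and −0.020 (60 against 12). With normexp they were 0.30, 0.24, 0.26 and 0.23, then 0.23, 0.15, 0.22 and 0.16, and −0.040 on chromosome 4 from 12 to 60 weeks. Against the other autosomes without 10 and 19 the 60 weeks medians were 0.32, 0.23, 0.33 and 0.24, and those from 12 to 60 weeks −0.047, −0.019 and −0.035 on chromosomes 4, 12 and 14. The brighter genes by mean level alone gave 0.41, 0.31 and 0.29 on chromosomes 4, 12 and 14 at 12 weeks, 0.32, 0.23, 0.29 and 0.27 after 60 weeks, and −0.018 and −0.0095 on chromosomes 12 and 14 from 12 to 60 weeks. Trimmed means gave 0.27, 0.18 and −0.10 on chromosome 14 (12 against 0, 60 against 0, 60 against 12) and 0.27 on chromosome 12 at 60 weeks. The mean of all probes gave 0.36 and 0.29 on chromosome 12 at 12 and 60 weeks. Probes above background on all arrays gave 0.29 on chromosome 14 at 12 weeks. On chromosome 12 at 60 weeks the deposited value table gave 0.26 and the slide as a block 0.27. The slide block gives what leaving out the third 60 weeks array gives.

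With the row as a block the medians were 0.39, 0.31 and 0.25 on chromosomes 4, 5 and 14 (12 against 0). For 60 against 0 they were 0.23 and 0.27 on chromosomes 5 and 12. In that fit 307 (60 against 0) and 648 (60 against 12) members were called. It also lacks the third 60 weeks array, whose removal alone gave 815 and 912. The cause was not tested, beyond the fact that 0 and 60 weeks share no row. Leaving out each array in turn, called members ranged from 919 to 1522, 677 to 1283 and 687 to 1349 in the 3 comparisons. The medians ranged from 0.35 to 0.38, 0.26 to 0.29, 0.30 to 0.35 and 0.29 to 0.31 (12 against 0), from 0.27 to 0.31, 0.18 to 0.22, 0.27 to 0.30 and 0.20 to 0.25 (60 against 0), and from −0.083 to −0.058, −0.077 to −0.057, −0.068 to −0.034 and −0.093 to −0.065 (60 against 12).

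Samples with the same replicate number correlated at −0.08 to 0.20 in their deviations from the group means, so the numbers were not taken to pair them. With the replicate number as a block, 1240, 958 and 985 members were called. Of 96 called changes of named genes against 0 weeks, 77 held in all alternatives, 18 ended in at least 1, and 1 reversed: Tmem30b at 60 weeks, at −0.34 with the deposited value table (the cause was not tested). Normexp made 48 of the 96 smaller by over 1.5 times. The mean of all probes moved 9 by that much, the value table as deposited moved 6, the row block moved 4 (Megf6 at 60 weeks to −3.95 among them) and probes above background on all arrays moved 2.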
